A study of Mus musculus with 12 samples.

Results

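The 9 genes described here carry the signal of leukaemia inhibitory factor (LIF) from the cell surface to its targets: the receptor chains Lifr and Il6st, the transcription factor Stat3, the brake Socs3, and the STAT3 targets Junb, Pim1, Pim3, Bcl3 and Gbx2. They were chosen by symbol and matched by gene ID, 9 of the 32285 genes in the count table. All 9 passed the filter on low counts, which kept 18693 genes. RNA was sequenced from mouse E14Tg2a.IV embryonic stem (ES) cells, a feeder-independent male line, in 6 groups of 2 libraries each. For the Smad4 knockout this line background is in doubt, given the counts of the gene Hprt below. At day 4 the groups were Smad2/3 double knockout (S2/3DKO), Smad4 knockout (S4KO) and wild-type (WT) cells that had formed embryoid bodies for 4 days without LIF. At day 0 they were S2/3DKO, S4KO and WT undifferentiated ES cells. Nothing in the labels says whether a knockout is 1 clone or several, or whether the libraries of a group came from separate cultures, so p-values measure only the spread between these libraries, which may be technical.

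LIF binds LIFR and gp130, the product of Il6st, and the pair activates JAK kinases that phosphorylate STAT3. Phosphorylated STAT3 enters the nucleus, binds palindromic sites and switches on genes that hold mouse ES cells undifferentiated, among them Socs3, whose protein binds gp130 and JAK and shuts the signal down. SMAD2, SMAD3 and SMAD4 belong to another pathway, that of activin, NODAL, TGF-beta and, for SMAD4, BMP ligands.

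Sequences before the RefSeq start sites of Socs3 and Bcl3 are shown because these genes had the largest called falls at day 4 in WT cells. They come from RefSeq promoter windows (build GRCm38.p6, 250 bases before to 50 after a start site), which held all 9 genes in 11 windows, and are printed 5′ to 3′ up to the next annotated exon. Capitals mark a match to the palindromic STAT motif TTCNNNGAA, which reads the same on both strands.
Socs3 (chr11:117969452-117969616, minus strand): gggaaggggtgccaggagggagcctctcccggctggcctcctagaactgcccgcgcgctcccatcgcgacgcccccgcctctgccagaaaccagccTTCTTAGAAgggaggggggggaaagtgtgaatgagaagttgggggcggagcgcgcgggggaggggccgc
Bcl3 (chr7:19822771-19823005, minus strand): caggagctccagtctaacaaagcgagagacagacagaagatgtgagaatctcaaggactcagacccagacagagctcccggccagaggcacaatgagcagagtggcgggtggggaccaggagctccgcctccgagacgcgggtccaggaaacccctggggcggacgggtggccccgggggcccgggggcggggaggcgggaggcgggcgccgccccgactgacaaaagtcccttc
The motif occurred once in the 11 windows, before the RefSeq start site of Socs3 as TTCTTAGAA at chr11:117969512-117969520, whose 5′ end lies 154 bases before that start. GENCODE annotates 3 Socs3 transcripts: the printed stretch lies upstream of 2 of them and in the intron of 1, whose start at 117970047 is the 5′ end of the annotated gene. It occurred in 2726 of all 32851 windows, or 8.3%. The window of Bcl3 held none of these letters in that arrangement, and no more can be said of STAT3 binding from either window.

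The libraries held 31566376 to 55806858 counts. Values below are counts scaled to library size (CPM) with TMM factors. The 2 WT day 0 libraries had the lowest TMM factors, 0.8374 and 0.9007, against 0.9752 to 1.089 in the other 10. S2/3DKO day 0 replicate 2 stood apart with 6.74% mitochondrial counts, against 1.87 to 3.93% elsewhere. The knockouts still held transcripts of their targeted genes: Smad4 was at 100 and 79.6 CPM in S4KO day 0 libraries and 49.6 and 52.3 CPM in WT day 0 libraries, and Smad2 at 37.8 and 47.7 CPM in S2/3DKO day 0 libraries and 29.5 and 38.8 CPM in WT day 0 libraries. Smad3 was at 19.8 and 13.1 CPM in S2/3DKO day 0 libraries and 9.68 and 11.5 CPM in WT day 0 libraries. Counts over whole genes do not check a deletion of a part of them. Hprt, which the E14Tg2a line is known to lack, was at 169 to 212 CPM in S4KO libraries and at most 0.724 CPM in S2/3DKO and WT libraries, so genotype and line background cannot be told apart in S4KO. The 5 ES cell markers (Pou5f1, Sox2, Nanog, Zfp42 and Esrrb) were above 1 CPM in every group. Their sum was 1034 and 1482 CPM in WT day 4 libraries and 4079 and 4324 CPM in WT day 0 libraries. Blood markers summed to at most 0.595 CPM in any library, and fibroblast markers to at most 29.0 CPM.

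**Figure D1:**
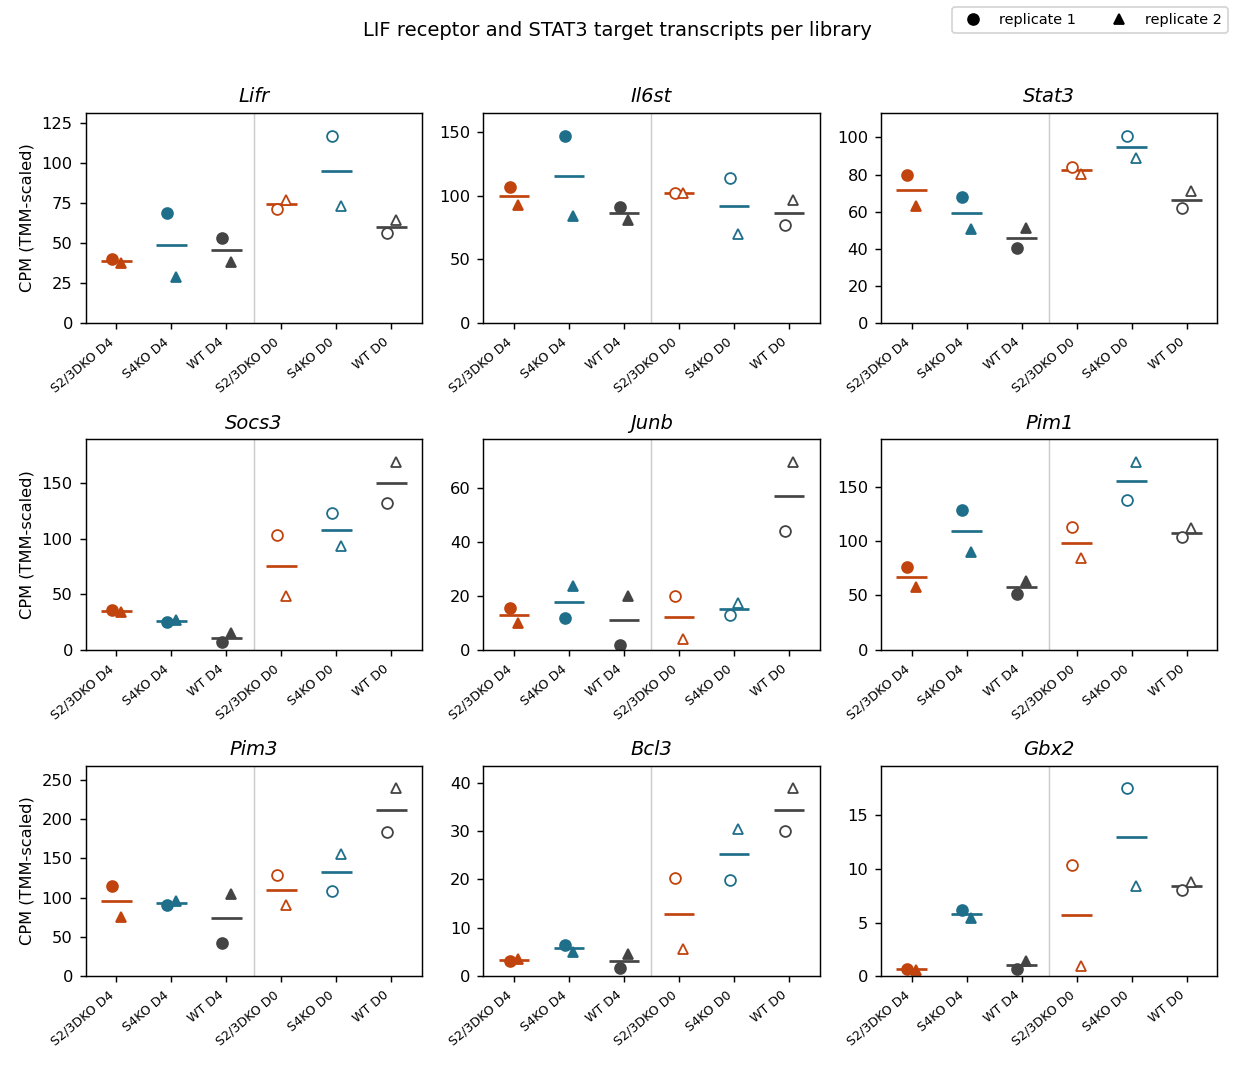
CPM of each gene in every library (y axis, linear, starting at 0) for the 3 day 4 groups (filled) and the 3 day 0 groups (open); circles are replicate 1, triangles replicate 2, and bars the mean of the 2. Socs3, Bcl3, Pim3 and Junb had their highest libraries in WT at day 0, whereas Il6st differed little between groups.

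In WT the receptor chains had the smallest log2 fold changes of the 9 in CPM, a place they did not keep with a length and GC correction. Lifr, the LIF-binding chain (ENSMUSG00000054263, chr15:7090614-7197489, GRCm38, plus strand), was at 40.1 and 37.7 CPM in S2/3DKO, 68.6 and 29.0 CPM in S4KO and 53.4 and 38.2 CPM in WT at day 4, against 71.5 and 76.8 CPM in S2/3DKO, 117 and 72.8 CPM in S4KO and 56.0 and 64.2 CPM in WT at day 0. Every genotype had both day 4 libraries below both of its day 0 libraries. The log2 fold change of day 4 over day 0 was -0.93 ± 0.36 in S2/3DKO, -0.96 ± 0.36 in S4KO and -0.39 ± 0.36 in WT (SE), and none passed edgeR's quasi-likelihood test (adjusted p 0.137, 0.124 and 0.395). Il6st, the shared signalling chain gp130 (ENSMUSG00000021756, chr13:112464070-112510086, plus strand), was at 107 and 92.4 CPM in S2/3DKO, 147 and 84.0 CPM in S4KO and 91.2 and 81.0 CPM in WT at day 4, against 102 and 102 CPM in S2/3DKO, 114 and 69.8 CPM in S4KO and 76.9 and 96.2 CPM in WT at day 0. All neighbouring groups overlapped when ranked by their mean. Its log2 fold change of day 4 over day 0 was -0.04 ± 0.29 in S2/3DKO, 0.33 ± 0.29 in S4KO and -0.01 ± 0.29 in WT (adjusted p 0.961, 0.52 and 0.99).

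Stat3, the factor that the receptor activates (ENSMUSG00000004040, chr11:100885098-100939540, minus strand), was at 79.9 and 63.0 CPM in S2/3DKO, 68.0 and 50.8 CPM in S4KO and 40.7 and 51.1 CPM in WT at day 4, against 84.2 and 80.2 CPM in S2/3DKO, 101 and 88.9 CPM in S4KO and 62.1 and 71.0 CPM in WT at day 0. Day 4 libraries lay below day 0 libraries in each genotype, with no overlap. The difference was -0.20 ± 0.22 in S2/3DKO, -0.67 ± 0.23 in S4KO and -0.54 ± 0.23 in WT on the log2 scale and did not pass edgeR's test (adjusted p 0.622, 0.086 and 0.0735). In the authors' FPKM, Stat3 was at 8.84 and 12.2 in WT at day 4, against 19.5 and 19.9 in S2/3DKO, 22.8 and 18.4 in S4KO and 8.68 and 11.6 in WT at day 0. The days of WT overlapped on that scale. On log2(FPKM + 1), limma called Stat3 higher in S2/3DKO (0.91, adjusted p 0.0136) and in S4KO (0.96, adjusted p 0.0161) than in WT at day 0, where the counts gave 0.30 ± 0.22 (adjusted p 0.323) and 0.51 ± 0.22 (adjusted p 0.13). The ratio of CPM to FPKM for Stat3 was 7.15 and 6.15 in the WT day 0 libraries and 3.96 to 4.84 in the other 10. How the 2 tables assigned reads of this gene is not given in the sources used here.

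Socs3 had the largest log2 fold change between days in WT of the 9. This gene for the feedback inhibitor of gp130 and JAK (ENSMUSG00000053113, chr11:117966079-117970047, minus strand) was at 35.7 and 33.8 CPM in S2/3DKO, 24.8 and 26.9 CPM in S4KO and 6.93 and 14.7 CPM in WT at day 4, against 103 and 48.5 CPM in S2/3DKO, 123 and 93.0 CPM in S4KO and 132 and 169 CPM in WT at day 0. The order of the genotype means at day 4 was the reverse of that at day 0: WT was highest with LIF and lowest without it. Of the neighbours in the order of the 6 group means, S4KO and S2/3DKO at day 0 were the pair whose libraries overlapped. Socs3 fell 13.9-fold in WT (log2 fold change -3.80 ± 0.42, adjusted p 0.000203) and 4.17-fold in S4KO (-2.06 ± 0.39, adjusted p 0.0107) by edgeR's test. In S2/3DKO the fold change was -1.13 ± 0.38 on the log2 scale (adjusted p 0.0967). Without S4KO day 4 replicate 2, the S4KO value was -2.14 with an adjusted p of 0.0854. Without S2/3DKO day 0 replicate 2, the S2/3DKO value was -1.59 with an adjusted p of 0.031.

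Junb, an AP-1 subunit (ENSMUSG00000052837, chr8:84974484-84978718, minus strand), separated WT ES cells from all other groups. It was at 15.5 and 9.97 CPM in S2/3DKO, 11.9 and 23.6 CPM in S4KO and 1.86 and 19.9 CPM in WT at day 4, against 20 and 3.97 CPM in S2/3DKO, 12.8 and 17.3 CPM in S4KO and 44.1 and 69.7 CPM in WT at day 0. Both WT day 0 libraries exceeded the other 10, and the WT day 4 replicates were far apart. The day 4 over day 0 value in WT was -2.39 ± 0.91 and missed the threshold of edgeR's test (adjusted p 0.0525). It was -4.89 (adjusted p 0.00299) without WT day 4 replicate 2. In S2/3DKO and S4KO the values were 0.08 ± 0.87 and 0.23 ± 0.87 (adjusted p 0.97 and 0.906).

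Pim1 and Pim3 encode related serine/threonine kinases that favour survival and growth. Pim1 (ENSMUSG00000024014, chr17:29490753-29496112, plus strand) was at 76.1 and 57.7 CPM in S2/3DKO, 129 and 89.6 CPM in S4KO and 51.4 and 63.4 CPM in WT at day 4, against 113 and 84.1 CPM in S2/3DKO, 138 and 173 CPM in S4KO and 104 and 112 CPM in WT at day 0. Day 4 libraries were below day 0 libraries in each genotype, and S4KO held the highest mean on either day. Pim1 fell 1.89-fold in WT (log2 -0.92 ± 0.26, adjusted p 0.014 by edgeR's test), a call that did not hold without WT day 0 replicate 1 (-0.97, adjusted p 0.0563), WT day 0 replicate 2 (-0.86, adjusted p 0.0697) or WT day 4 replicate 1 (-0.86, adjusted p 0.0604). The S2/3DKO and S4KO values of Pim1, -0.56 ± 0.25 and -0.51 ± 0.25, did not pass (adjusted p 0.198 and 0.233). Pim3 (ENSMUSG00000035828, chr15:88862186-88865726, plus strand) was at 115 and 75.4 CPM in S2/3DKO, 90.2 and 95.6 CPM in S4KO and 42.6 and 105 CPM in WT at day 4, against 129 and 90.5 CPM in S2/3DKO, 109 and 156 CPM in S4KO and 184 and 239 CPM in WT at day 0. WT day 0 stood above all other groups, as for Junb. Pim3 fell 2.87-fold in WT (-1.52 ± 0.39, adjusted p 0.00939), and without WT day 0 replicate 2 this was -1.32 with an adjusted p of 0.0573. In S2/3DKO and S4KO Pim3 gave -0.21 ± 0.38 and -0.51 ± 0.38 (adjusted p 0.781 and 0.434).

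Bcl3, an atypical IκB protein that acts with NF-κB subunits in the nucleus (ENSMUSG00000053175, chr7:19808462-19822770, minus strand), was at 3.07 and 3.45 CPM in S2/3DKO, 6.46 and 5.07 CPM in S4KO and 1.59 and 4.48 CPM in WT at day 4, against 20.3 and 5.54 CPM in S2/3DKO, 19.9 and 30.4 CPM in S4KO and 30.1 and 38.8 CPM in WT at day 0. No genotype had overlap between its days. Bcl3 fell 11.4-fold in WT (-3.51 ± 0.61, adjusted p 0.00135) and 4.35-fold in S4KO (-2.12 ± 0.58, adjusted p 0.043) by edgeR's test, and gave -1.99 ± 0.58 in S2/3DKO (adjusted p 0.0617). The WT call held with each library left out. The S4KO call did not hold without any 1 of its 4 libraries, with adjusted p 0.0538 and 0.139 without day 0 replicate 1 or 2 and 0.0874 and 0.26 without day 4 replicate 1 or 2. Without S2/3DKO day 0 replicate 2, the S2/3DKO value was -2.65 (adjusted p 0.0159).

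Gbx2, a homeobox factor that can sustain mouse ES cell self-renewal (ENSMUSG00000034486, chr1:89927956-89931179, minus strand), was a rare transcript. It was at 0.71 and 0.568 CPM in S2/3DKO, 6.17 and 5.38 CPM in S4KO and 0.682 and 1.40 CPM in WT at day 4, against 10.4 and 0.971 CPM in S2/3DKO, 17.5 and 8.38 CPM in S4KO and 8.05 and 8.78 CPM in WT at day 0. S4KO embryoid bodies held more Gbx2 transcript than either WT or S2/3DKO embryoid bodies in every library. Gbx2 fell 8.08-fold in WT (-3.01 ± 0.83, adjusted p 0.0133) and 8.86-fold in S2/3DKO (-3.15 ± 0.85, adjusted p 0.0477) by edgeR's test, and gave -1.16 ± 0.77 in S4KO (adjusted p 0.371). Without WT day 4 replicate 1 the WT value was -2.67 (adjusted p 0.0894). The S2/3DKO fall rested on day 0 replicate 1, without which it was -0.62. The call also did not hold without S2/3DKO day 4 replicate 1 (-3.33) or replicate 2 (-3.03). Calls over all genes fell in each of these S2/3DKO fits too.

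Reads of 5 of the 9 genes could not be fully separated from a gene on the opposite strand, since the kit does not mark strand. Exons of Gbx2 shared 946 bases with D130058E05Rik, those of Pim1 488 with Gm26885, those of Junb 173 with Prdx2, those of Bcl3 161 with Gm16175 and those of Stat3 72 with Stat5a.

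Across the 9 genes, 5 were lower in WT at day 4 than at day 0 (Socs3, Bcl3, Gbx2, Pim3 and Pim1) and none was higher. LIF removal and embryoid body formation coincide in these groups and cannot be told apart. Of all genes tested in WT, 43.6% were called and 19.9% were called lower, so calls were common in this comparison. The median log2 fold change of the 9 was -1.52, beside 0.08 for all genes tested, and all 9 values were negative, although Il6st and Stat3 were positive on log2(FPKM + 1), at 0.21 and 0.05. Fewer of the 9 were called without WT day 0 replicate 2 or without WT day 4 replicate 1, where fewer of all genes were called too. In S2/3DKO 1 of 9 was lower (Gbx2), where 7.03% of all genes were called and 3.46% called lower, and the median was -0.56 beside 0.02. In S4KO 2 of 9 were lower (Socs3 and Bcl3), where 8.90% of all genes were called and 3.81% called lower, and the median was -0.67 beside 0.02. With the 2 groups of a contrast fitted alone, the S4KO calls of Socs3 and Bcl3 (adjusted p 0.0543 and 0.0679) and the S2/3DKO call of Gbx2 (adjusted p 0.127) did not hold. Calls over all genes fell to 16 of 16967 in S4KO and 930 of 17432 in S2/3DKO in those fits. On log2(FPKM + 1), limma did not call Pim1 in WT (-0.49, adjusted p 0.113) or Gbx2 in S2/3DKO (-1.14, adjusted p 0.15). In bulk RNA, fewer cells with a transcript and less of it per cell cannot be told apart. ES markers summed to 750 and 579 CPM in S2/3DKO day 4 libraries against 3196 and 1958 CPM in S2/3DKO day 0 libraries, and to 2040 and 1236 CPM in S4KO day 4 libraries against 3566 and 3630 CPM in S4KO day 0 libraries. The 6 extraembryonic endoderm markers summed to 484 and 421 CPM in WT day 4 libraries and 2.32 and 2.42 CPM in WT day 0 libraries. In S2/3DKO they summed to 106 and 72.8 CPM at day 4 and 15.9 and 28.6 CPM at day 0, and in S4KO to 21.9 and 25.7 CPM at day 4 and 6.83 and 7.95 CPM at day 0. Cubn made up most of the S4KO rise, with means of 14.4 CPM at day 4 and 1.23 CPM at day 0. Gata4 (3.58 and 3.34 CPM) and Gata6 (2.03 and 1.94 CPM) differed little there, while Sox17, Sox7 and Afp had higher means at day 4. The part of these cell type differences in the falls was not tested.

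**Figure D2:**
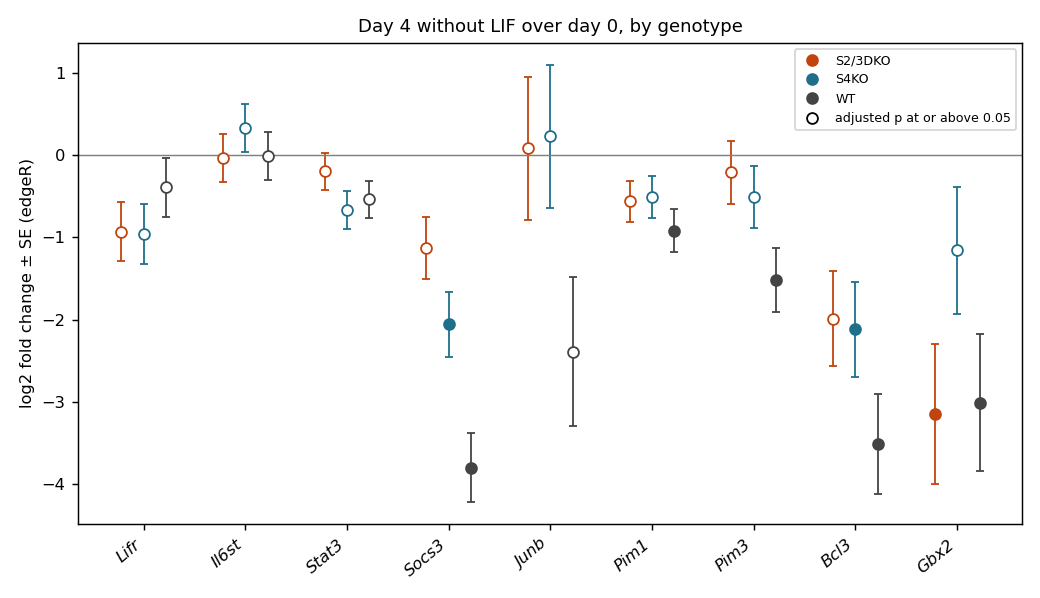
Log2 fold change of day 4 over day 0 (y axis, edgeR estimate ± SE) for each gene in S2/3DKO, S4KO and WT, 2 libraries per group; filled points have an adjusted p below 0.05. Socs3 lay at -1.13, -2.06 and -3.80 in that order, and the receptor chains and Stat3 had open points in all 3 genotypes.

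Whether the change over 4 days differed between genotypes was tested as an interaction. In S2/3DKO minus WT, 1 of 9 passed: Socs3 fell less in S2/3DKO, by 2.67 ± 0.55 on the log2 scale (adjusted p 0.0264, edgeR), where 6.10% of all genes were called and 1.83% were called in this direction. That interaction was 2.84 without WT day 0 replicate 1, 2.49 without replicate 2 and 2.31 without WT day 4 replicate 1. It was 2.63 and 2.69 without S2/3DKO day 4 replicate 1 or 2. The interaction did not pass in these fits, which leave 1 library in a group, and calls over all genes fell in them too. Without WT day 4 replicate 2, calls in this contrast rose among the 9 genes and among all genes. In S4KO minus WT, 0 of 9 passed edgeR's test, where 0.150% of all genes were called. At an unadjusted p below 0.05 there was 1 (Socs3, 1.74 ± 0.54, adjusted p 0.128), and DESeq2 called 1 and limma on FPKM 0. Over all genes, DESeq2 called 1590 of 18693 in S4KO minus WT and limma 176 of 13879. Without WT day 4 replicate 2, the values were 2.29 for Socs3, 5.07 for Junb and 1.72 for Pim3. Calls then rose among the 9 genes and among all genes.

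Without LIF at day 4, Socs3 was higher in both knockouts than in WT in every library. In S2/3DKO over WT it was 3.22-fold higher (log2 1.69 ± 0.39, adjusted p 0.0149, edgeR), the 1 member of 9 that passed, where 15.2% of all genes were called and 7.21% were called higher. The call did not hold without WT day 4 replicate 1 (1.32, adjusted p 0.0731), S2/3DKO day 4 replicate 1 (1.66, adjusted p 0.062) or S2/3DKO day 4 replicate 2 (1.72, adjusted p 0.0573). Stat3 came next at 0.64 ± 0.23 (adjusted p 0.079), and the other 7 lay between -0.70 and 0.37. In S4KO over WT at day 4, all 9 values were positive with a median of 0.70, beside -0.03 for all genes, but 0 of 9 passed edgeR's test, where 1.73% of all genes were called. At an unadjusted p below 0.05 there were 3, Gbx2 (2.47 ± 0.82, adjusted p 0.175), Socs3 (1.26 ± 0.39, adjusted p 0.14) and Pim1 (0.93 ± 0.26, adjusted p 0.098). DESeq2 called 3 of 9 and limma on FPKM 0. Over all genes, DESeq2 called 1057 of 18693 in this comparison and limma 405 of 13879. Without S4KO day 4 replicate 2, Pim1 passed at 1.21 (adjusted p 0.0455). Not all of the positive values held without WT day 4 replicate 1, where Junb and Pim3 both gave -0.13. Beside these day 4 values, the 5 epiblast and streak markers (Fgf5, Otx2, T, Eomes and Mixl1) summed to 80.5 and 76.3 CPM in S2/3DKO libraries and 76.7 and 240 CPM in S4KO libraries, against 872 and 820 CPM in WT libraries. Their part in the results was not tested.

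At day 0, in the presence of LIF, 0 of 9 passed edgeR's test in S2/3DKO over WT, where 31.0% of all genes were called. At an unadjusted p below 0.05 there were 4, all lower in S2/3DKO: Junb (-2.24 ± 0.91, adjusted p 0.0802), Bcl3 (-1.41 ± 0.56, adjusted p 0.077), Socs3 (-0.99 ± 0.38, adjusted p 0.0693) and Pim3 (-0.94 ± 0.38, adjusted p 0.0826). DESeq2 called 3 and limma on FPKM 3, where over all genes they called 6857 of 18693 and 5418 of 13879. Without S2/3DKO day 0 replicate 1, Junb was at -3.83, Gbx2 at -3.10, Bcl3 at -2.63 and Socs3 at -1.62. These passed in that fit, which leaves 1 library in the group, while calls over all genes fell somewhat. In S4KO over WT at day 0, 0 of 9 passed as well, where 19.6% of all genes were called. There was 1 at an unadjusted p below 0.05 (Stat3), and DESeq2 called 0 and limma on FPKM 1. Over all genes, they called 5023 of 18693 and 3842 of 13879. Junb, at -1.91 ± 0.89 (adjusted p 0.152), was the lowest of the 9 and Lifr, at 0.66 ± 0.36 (adjusted p 0.22), the highest. The comparisons of the 2 knockouts share their WT libraries.

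**Figure D3:**
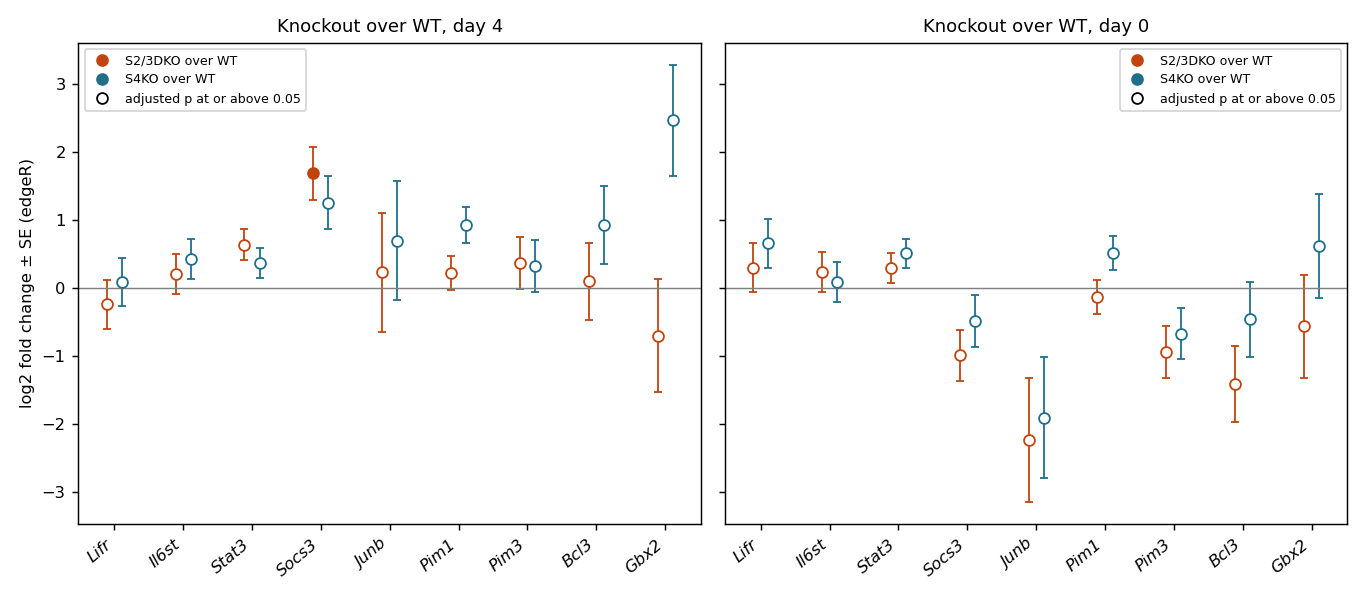
Log2 fold change of each knockout over WT (y axis, edgeR estimate ± SE), at day 4 on the left and day 0 on the right, 2 libraries per group; filled points have an adjusted p below 0.05. The filled point is Socs3 in S2/3DKO at day 4, at 1.69.

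The spread between replicates differed by group. In S2/3DKO at day 0, replicate 2 was below replicate 1 in 7 of the 9 genes, by up to 10.7-fold for Gbx2, 5.05-fold for Junb, 3.67-fold for Bcl3 and 2.13-fold for Socs3. Il6st was level, at a ratio of 0.999. Over all genes tested, the median log2 ratio of these libraries was -0.01, and 16.8% of genes differed by more than 2-fold. The receptor chains and Stat3 differed little between those 2 libraries. Replicate 2 is the library with 6.74% mitochondrial counts, and the part of that in these values was not tested. In WT at day 4, replicate 2 was above replicate 1 in 7 of 9 genes, with a median log2 ratio of 1.04. The median over all genes was 0.00 there, and 13.8% of genes differed by more than 2-fold. In WT at day 0 the median log2 ratio of the 9 was 0.32 and the highest 0.66, beside a median of 0.02 over all genes.

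**Figure D4:**
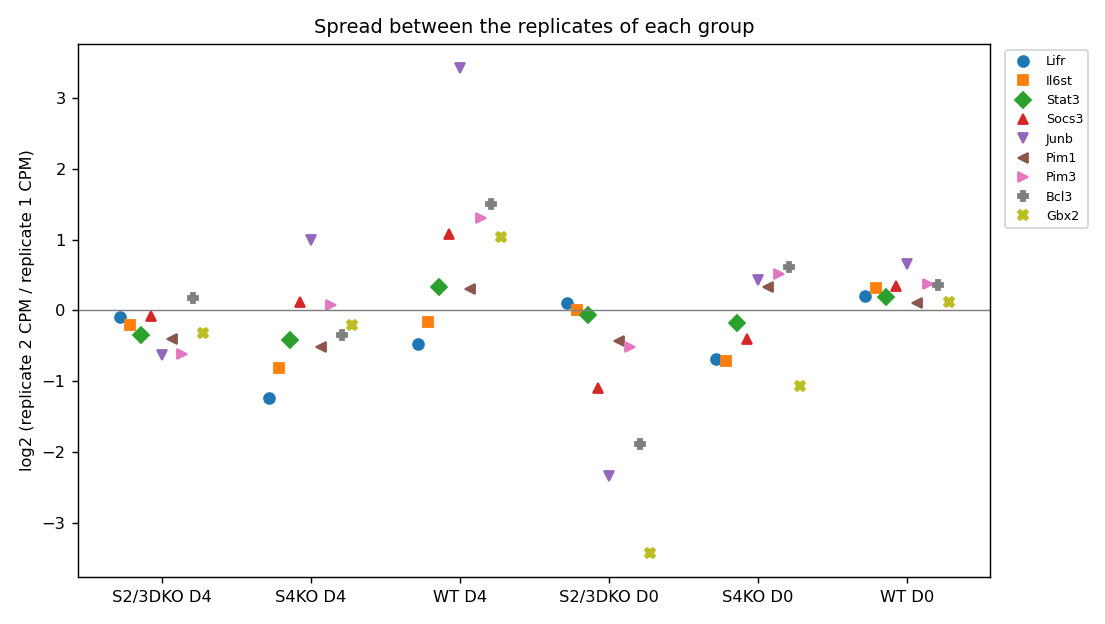
Log2 ratio of replicate 2 to replicate 1 CPM (y axis) for each gene in the 6 groups. In S2/3DKO at day 0 the values ran from -3.42 (Gbx2) to 0.10 (Lifr), and in WT at day 4 from -0.48 (Lifr) to 3.42 (Junb).

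The receptor chains and Stat3 have a large total length of annotated exons (10776 bases for Lifr, 11099 for Il6st and 9527 for Stat3), against 2177 to 3362 bases in the other 6. A single transcript can be shorter than this total. GC of the longest transcript was 44.4 to 52.5% in the receptor chains and Stat3 and 56.0 to 62.6% in the other 6. With a correction for trends of counts with this total exon length and GC content in each library, edgeR called 7 of 9 lower in WT at day 4. Over all genes, 7845 of 18682 were called in WT with the correction, in either direction, and 8157 of 18693 without it. Lifr was then lower in WT at -1.52 (adjusted p 0.00421), Stat3 at -1.07 (adjusted p 0.00133), Il6st at -0.95 (adjusted p 0.0115) and Junb at -1.84 (adjusted p 0.0396). Pim1 (-0.46, adjusted p 0.0995) and Gbx2 (-2.17, adjusted p 0.0509) were no longer called, while Socs3 (-3.21), Bcl3 (-2.73) and Pim3 (-0.71) were. The same correction gave 4 of 9 in S2/3DKO, with Lifr at -1.06 (adjusted p 0.0498), Socs3 at -1.23 (adjusted p 0.0292), Bcl3 at -1.98 (adjusted p 0.0113) and Gbx2 at -3.18 (adjusted p 0.0317). Over all genes, calls in S2/3DKO rose from 1315 of 18693 to 2749 of 18682 with it. In S4KO the correction gave 5 of 9, with Lifr at -1.29 (adjusted p 0.0243), Stat3 at -0.89 (adjusted p 0.0104), Socs3 at -2.12 (adjusted p 0.00342), Pim3 at -0.60 (adjusted p 0.0367) and Bcl3 at -2.23 (adjusted p 0.00622). Over all genes, calls in S4KO rose from 1663 of 18693 to 2877 of 18682. Among the settings run, Lifr and Il6st were called lower in WT only with this correction, Stat3 with it and with DESeq2 (-0.58, adjusted p 0.0304), and Socs3 and Bcl3 with and without it.

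**Figure D5:**
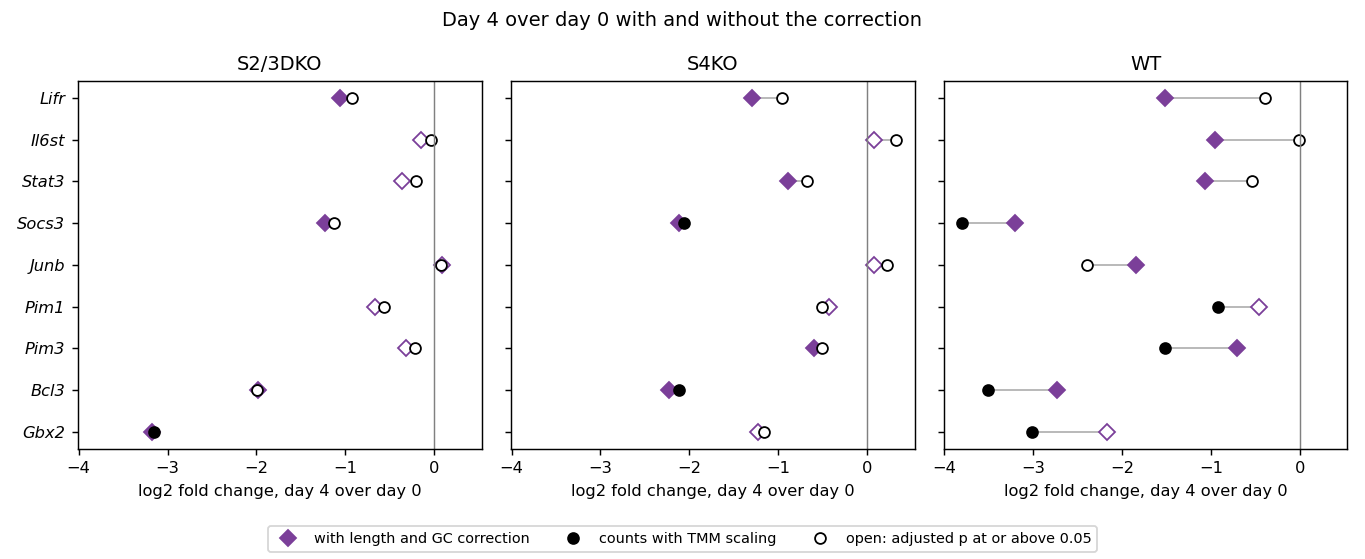
Log2 fold change of day 4 over day 0 (x axis, same scale in all panels) from edgeR with a length and GC correction (diamonds) and without it (circles), in S2/3DKO, S4KO and WT; filled symbols have an adjusted p below 0.05. In WT, Lifr moved between -1.52 with the correction and -0.39 without it, and Il6st between -0.95 and -0.01.

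Levels can be compared between genes per length, in the authors' FPKM (fragments by transcript length and depth). Pim1 (23.7 to 65.3 FPKM) and Pim3 (17.9 to 91.9 FPKM) were abundant in all 12 libraries. Il6st (7.77 to 18.6 FPKM) was above Lifr (3.02 to 12.3 FPKM) in every group mean. Socs3 spanned 2.72 to 59.6 FPKM, Junb 1.03 to 34.6 FPKM, Bcl3 0.869 to 21.8 FPKM and Gbx2 0.329 to 8.19 FPKM, so the targets with the widest ranges included both abundant and rare transcripts.

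As a description over the 12 libraries, which share groups and depth, log2 CPM of Socs3 correlated with that of Bcl3 at r = 0.92 and of Pim3 at 0.85, Junb with Pim3 at 0.89, and Pim1 with Gbx2 at 0.87. Il6st was correlated with Socs3 at -0.07. Among all genes tested with a mean of at least 5 CPM in their highest group, those most like Socs3 were Adprh (0.965), Arc (0.962) and Hspb1 (0.962). Those most like Stat3 were Inpp5d (0.965), Ampd3 (0.947) and Alpk3 (0.935), and those most like Lifr were Dennd2c (0.963), Papolb (0.898) and Wdr82 (0.897).

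Around the 9 genes, 3 lists of pathway genes written from general knowledge were counted: 12 cytokines and alternative receptor chains (11 tested, without Il6), 17 kinases, STATs, adaptors and brakes, and 15 other STAT3 targets. In WT at day 4 over day 0, 7 of the 15 other targets were lower and 1 higher (median log2 fold change -1, beside 0.08 for all genes), where 19.9% of all genes were called lower and 23.8% higher. The values were -4.80 ± 0.94 for Fos, another AP-1 subunit, and -4.17 ± 0.68 for the pluripotency factor Klf4 (adjusted p 0.00241 and 0.000966). Sp5 was the higher one, at 3.84 ± 0.87 (adjusted p 0.00513, and 0.0603 without WT day 0 replicate 1). Among the 17 kinases and brakes 6 were higher and 1 lower (median -0.14), with Jak2 at 1.94 ± 0.27 and Ptpn11, which encodes the phosphatase SHP2, at 1.77 ± 0.24 (adjusted p 0.000486 and 0.000404). Pias1 (1.07 ± 0.25, adjusted p 0.00537) and Stat5b (0.96 ± 0.29, adjusted p 0.0217) were called too. The Pias1 call did not hold without WT day 0 replicate 1 (adjusted p 0.0521) or WT day 4 replicate 1 (adjusted p 0.0629), and the Stat5b call without WT day 0 replicate 1 (adjusted p 0.147), WT day 0 replicate 2 (adjusted p 0.0666) or WT day 4 replicate 2 (adjusted p 0.096). Of the cytokines and chains, Osm, the gene of the related cytokine oncostatin M, was lower (-4.06 ± 0.53, adjusted p 0.000356) and Cntfr higher (1.77 ± 0.57, adjusted p 0.0263). Osm was a rare transcript, at 0.129 and 0.0958 CPM in WT at day 4 and 1.94 and 1.88 CPM in WT at day 0. The Cntfr call did not hold without WT day 0 replicate 1 or 2 (adjusted p 0.163 and 0.0697) or WT day 4 replicate 2 (adjusted p 0.27).

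In S2/3DKO at day 4 over day 0, where 7.03% of all genes were called, 6 of the 15 other targets and 1 of the 11 cytokines and chains were lower, and 0 of the 17 kinases and brakes passed edgeR's test (3 at an unadjusted p below 0.05, 1 with DESeq2 and 0 with limma on FPKM). Osm was rare in S2/3DKO, with means of 0.481 CPM at day 4 and 1.87 CPM at day 0. Klf4 (-2.50 ± 0.63, adjusted p 0.0388), Spp1 (-2.35 ± 0.46, adjusted p 0.0167), Pramel7 (-2.11 ± 0.46, adjusted p 0.0236) and Osm (-1.95 ± 0.46, adjusted p 0.0301) were called. These 4 calls were all lost without S2/3DKO day 4 replicate 1 and without S2/3DKO day 4 replicate 2. Without S2/3DKO day 0 replicate 1, Klf4 was at -1.12, Spp1 at -2.27, Pramel7 at -1.95 and Osm at -1.68, and none passed. Each of these fits leaves 1 library in a group, and calls over all genes fell in them too. In S4KO, where 8.90% of all genes were called, 3 of the 15 other targets were lower, among them Klf4 (-3.34 ± 0.65, adjusted p 0.0119) and Pramel7 (-2.23 ± 0.54, adjusted p 0.0281). Osm was lower (-2.08 ± 0.48, adjusted p 0.0232) and Ptpn11 higher (0.86 ± 0.23, adjusted p 0.0415). Pramel7 and Osm were rare in S4KO, with means of 0.16 and 0.275 CPM at day 4 and 0.804 and 1.18 CPM at day 0. Without S4KO day 4 replicate 2, the adjusted p was 0.0956 for Klf4, 0.213 for Pramel7, 0.165 for Osm and 0.371 for Ptpn11. Without S4KO day 4 replicate 1 it was 0.0534 for Osm and 0.0549 for Ptpn11, without S4KO day 0 replicate 1 it was 0.102 for Pramel7, and without S4KO day 0 replicate 2 it was 0.0861 for Osm and 0.263 for Ptpn11, whose value was then 0.56.

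The gene of the ligand itself, Lif, was higher in S2/3DKO than in WT at both days. It was at 25.0 and 19.1 CPM in S2/3DKO day 4 libraries and 3.72 and 5.86 CPM in WT day 4 libraries (2.20 ± 0.35, adjusted p 0.00232), and this call held with each library left out. At day 0 it was at 12.3 and 10.9 CPM in S2/3DKO libraries and 3.81 and 4.35 CPM in WT libraries (1.51 ± 0.35, adjusted p 0.00886, and 0.0905 without WT day 0 replicate 1). The 5 trophectoderm markers (Cdx2, Gata3, Elf5, Eomes and Krt7) summed at day 4 to 247 and 237 CPM in S2/3DKO libraries and 256 and 254 CPM in WT libraries, a WT sum that was mostly Eomes (245 CPM on average, against 6.54 CPM in S2/3DKO). At day 0 they summed to 77.6 and 118 CPM in S2/3DKO libraries and 20 and 19.6 CPM in WT libraries. At day 4 Gata3 averaged 34.0 CPM in S2/3DKO, against 0.82 CPM in WT. Its day 0 averages were 14.2 CPM in S2/3DKO, against 0.408 CPM in WT. Krt7 stood at 197 CPM in S2/3DKO, against 7.28 CPM in WT, at day 4. Its day 0 averages were 75.7 CPM in S2/3DKO, against 15.1 CPM in WT. The part of these markers in the differences of Lif, of the kinases and brakes and of the other targets between S2/3DKO and WT was not tested. Of the 11 cytokines and chains, 2 were called at each day, where 15.2% of all genes were called at day 4 and 31.0% at day 0, with Osm (2.07 ± 0.52, adjusted p 0.0219) at day 4 and Il6ra (1.23 ± 0.40, adjusted p 0.0379) at day 0. Osm was below 1 CPM in all of these day 4 libraries, at 0.594 and 0.367 CPM in S2/3DKO and 0.129 and 0.0958 CPM in WT. The Osm call did not hold without any 1 of the 4 libraries (adjusted p 0.178 and 0.0568 without S2/3DKO day 4 replicate 1 or 2, 0.0658 and 0.0882 without WT day 4 replicate 1 or 2). The Il6ra call did not hold without S2/3DKO day 0 replicate 1 (0.76, adjusted p 0.212) or WT day 0 replicate 1 or 2 (adjusted p 0.201 and 0.124).

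Of the 17 kinases and brakes, 2 were called in S2/3DKO over WT at day 4, beside 15.2% of all genes, and 7 at day 0, beside 31.0%. Socs2, a brake related to Socs3, was lower at both (-2.22 ± 0.28, adjusted p 0.00063 at day 4, and -1.45 ± 0.27, adjusted p 0.00422 at day 0), and these calls held with each library left out. Jak1, the main kinase on gp130, was at 0.75 ± 0.21 at day 4 (adjusted p 0.0314) and 1.56 ± 0.21 at day 0 (adjusted p 0.00126). The day 4 call of Jak1 was lost without S2/3DKO day 4 replicate 1 or 2 (adjusted p 0.194 and 0.185) or WT day 4 replicate 2 (adjusted p 0.134). Jak2 (1.36 ± 0.27, adjusted p 0.00504) and Ptpn11 (1.06 ± 0.23, adjusted p 0.00765) were higher at day 0, and without WT day 0 replicate 1 their adjusted p was 0.0612 and 0.0906. In S4KO at day 0, 3 of 17 were called, beside 19.6% of all genes, and all were higher: Jak2 (1.39 ± 0.27, adjusted p 0.00978), Jak1 (1.11 ± 0.21, adjusted p 0.00912) and Ptpn11 (0.82 ± 0.23, adjusted p 0.0326). Those 3 were lost without S4KO day 0 replicate 1 or WT day 0 replicate 1. Jak2 and Ptpn11 were also lost without WT day 0 replicate 2. Calls over all genes fell in each of these fits too. In S4KO at day 4, 0 of 17 kinases and brakes (1 at an unadjusted p below 0.05, 0 with DESeq2 or with limma on FPKM) and 0 of 11 cytokines and chains (2 at an unadjusted p below 0.05, 1 with DESeq2 and 0 with limma on FPKM) passed edgeR's test.

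Among the other 15 targets, 6 were called in S2/3DKO over WT at day 4, beside 15.2% of all genes, and 3 at day 0, beside 31.0%. Pramel7, a known LIF and STAT3 target of ES cells, was higher at both (4.11 ± 0.55, adjusted p 0.000915 at day 4, and 5.74 ± 0.57, adjusted p 0.000312 at day 0). It was close to absent in WT, at 0.166 and 0.0958 CPM at day 4 and 0.264 and 0.108 CPM at day 0. In S2/3DKO it was at 2.28 and 2.33 CPM at day 4 and 11.2 and 8.76 CPM at day 0. Sp5 was lower at both (-6.07 ± 0.99, adjusted p 0.00263 at day 4, and -3.07 ± 0.97, adjusted p 0.0333 at day 0), and Tfcp2l1 was higher at both (1.46 ± 0.36, adjusted p 0.0209, and 1.06 ± 0.36, adjusted p 0.0434). Sp5 was rare at day 0, at 0.313 and 0 CPM in S2/3DKO and 1.08 and 1.62 CPM in WT. Ccnd1 was lower at day 4 (-1.70 ± 0.37, adjusted p 0.0116), a call lost without S2/3DKO day 4 replicate 1 or 2 (adjusted p 0.0709 and 0.0916). The day 4 call of Tfcp2l1 was lost without S2/3DKO day 4 replicate 1 or 2 (adjusted p 0.133 and 0.0811) or WT day 4 replicate 2 (adjusted p 0.109). Its day 0 call did not hold without any 1 of the 4 libraries (adjusted p 0.0756 and 0.159 without S2/3DKO replicate 1 or 2, 0.192 and 0.14 without WT replicate 1 or 2), and the day 0 call of Sp5 without S2/3DKO replicate 2 (-2.08, adjusted p 0.11) or WT replicate 1 or 2 (adjusted p 0.0906 and 0.122). In S4KO over WT, 1 was called at day 4, where 1.73% of all genes were called, Sp5 (-5.23 ± 0.96, adjusted p 0.0223), and lost without S4KO day 4 replicate 1 (adjusted p 0.172) or WT day 4 replicate 2 (adjusted p 0.0712). At day 0, where 19.6% of all genes were called, 3 of the 15 were called in S4KO: Pramel7 (2.11 ± 0.54, adjusted p 0.022), Smad7 (-1.57 ± 0.39, adjusted p 0.0198) and Ccnd1 (-1.30 ± 0.37, adjusted p 0.0318). Pramel7 was rare there too, at 0.973 and 0.634 CPM in S4KO day 0 libraries. Il11ra1 (-1.61 ± 0.45, adjusted p 0.0309), from the cytokines and chains, was lower in S4KO at day 0. These 4 were lost without WT day 0 replicate 1 or 2 and without S4KO day 0 replicate 1. Each of these fits leaves 1 library in a group, and calls over all genes fell in them too. Ccnd1 was also lost without S4KO day 0 replicate 2 (-0.86).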

How the data were processed

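RNA was extracted from ES cells and embryoid bodies and made into TruSeq libraries (RNA Sample Prep Kit v2), per the labels. The count table that the authors deposited holds 1 column of whole numbers for each library, not normalized as far as recorded. The authors also deposited a table of FPKM by gene symbol. Cufflinks, StringTie, DESeq2 and build mm10 are named, without roles or versions, per the submitters' processing notes. The aligner and the counter's settings are not given in the sources used here. Groups came from sample titles. The 9 genes, the lists and the tests were chosen with earlier results of these data known.

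Counts were fitted with edgeR 4.0.16 (glmQLFit and glmQLFTest, TMM, filterByExpr) over all 12 libraries with 1 coefficient per group. P-values were adjusted by the Benjamini-Hochberg method over all 18693 genes tested, with a threshold of 0.05, and an SE is the log2 fold change divided by the square root of F. The common biological coefficient of variation was 0.286. CPM use TMM-scaled library sizes, and depth was 31566376 to 55806858 counts. All 9 genes are named in each comparison. From each list, up to 4 called genes per comparison are named, those with the largest change and no overlap between groups; a few results of that rule are not reported here. Likeness is Pearson's r of log2 CPM, and unnamed gene models (Gm, Rik) were skipped. Alternatives were RLE size factors, no filter, DESeq2 1.42.0, limma 3.58.1 on log2(FPKM + 1) or log2(FPKM + 0.1), a replicate block, a length and GC correction, the groups of a contrast alone, and each library left out. A lone library left in a group is assumed to vary like the others. Calls over all genes fell in most fits with a library left out, so a call lost there need not be particular to that gene. Replicates differed by more than counting noise.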

Additional observations from a re-analysis of the deposited data

Results flagged for a closer look

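The change of Socs3 over 4 days without LIF differed between S2/3DKO and WT. The test of that difference was the interaction in edgeR's quasi-likelihood fit, which gave 2.67 ± 0.55 on the log2 scale (adjusted p 0.0264). Day 4 over day 0 was -1.13 in S2/3DKO and -3.80 in WT. The difference did not pass without WT day 0 replicate 1 or 2, WT day 4 replicate 1 or S2/3DKO day 4 replicate 1 or 2. Those fits leave 1 library in a group, and calls over all genes fell in them too. Over all alternatives run, the value lay between 1.98 and 3.36.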

How the results depend on the processing

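The number of the 9 genes called was 5 for WT day 4 over day 0, 1 for S2/3DKO day 4 over day 0, 2 for S4KO day 4 over day 0, 0 for S2/3DKO over WT at day 0, 0 for S4KO over WT at day 0, 1 for S2/3DKO over WT at day 4, 0 for S4KO over WT at day 4, 1 for S2/3DKO change minus WT change and 0 for S4KO change minus WT change. Without the filter on low counts it was 3 for S2/3DKO day 4 over day 0, 4 for S2/3DKO over WT at day 0, 1 for S4KO over WT at day 0, 2 for S4KO over WT at day 4 and 1 for S4KO change minus WT change. Calls over all genes without the filter were 1944, 6087, 4118, 754 and 862 of 24816 in that order. With DESeq2 it was 3 for S2/3DKO day 4 over day 0, 3 for S2/3DKO over WT at day 0, 2 for S2/3DKO over WT at day 4, 3 for S4KO over WT at day 4 and 1 for S4KO change minus WT change. Calls of DESeq2 over all genes were 2715, 6857, 3908, 1057 and 1590 of 18693 in that order. With limma on log2(FPKM + 1) it was 3 for S2/3DKO over WT at day 0 and 1 for S4KO over WT at day 0, beside 5418 and 3842 of 13879 over all genes. With limma on log2(FPKM + 0.1) it was 0 for S2/3DKO day 4 over day 0, 1 for S2/3DKO over WT at day 0 and 1 for S4KO over WT at day 0. That setting called 1434, 5218 and 3591 of 13879 over all genes in that order. With limma on log2(FPKM + 1) and no filter it was 2 for WT day 4 over day 0, 0 for S2/3DKO day 4 over day 0, 1 for S4KO day 4 over day 0, 1 for S2/3DKO over WT at day 0, 1 for S4KO over WT at day 0 and 0 for S2/3DKO change minus WT change. Its calls over all genes were 7499, 1831, 1119, 4808, 2845 and 1039 of 24793 in that order. With a replicate block it was 0 for S2/3DKO day 4 over day 0 and 1 for S4KO day 4 over day 0, beside 1293 and 1607 of 18693 over all genes. With the length and GC correction it was 4 for S2/3DKO day 4 over day 0, 5 for S4KO day 4 over day 0, 1 for S4KO over WT at day 0, 2 for S2/3DKO over WT at day 4 and 1 for S4KO over WT at day 4. Calls over all genes were then 2749, 2877, 3391, 4440 and 842 of 18682 in that order. With the replicate block and the length and GC correction it was 8 for WT day 4 over day 0, 5 for S2/3DKO day 4 over day 0, 5 for S4KO day 4 over day 0, 1 for S4KO over WT at day 0, 2 for S2/3DKO over WT at day 4 and 1 for S4KO over WT at day 4. Calls over all genes with both were 7699, 2599, 2660, 3158, 4209 and 791 of 18682 in that order. With the groups of a contrast alone it was 0 for S4KO day 4 over day 0, 1 for S2/3DKO over WT at day 0 and 1 for S4KO over WT at day 0. Calls over all genes were 16 of 16967, 5605 of 16935 and 4022 of 16632 in that order. Scaling by RLE size factors left each count within 1.5 times the count given above. With each library left out in turn, the count ranged over 3 to 6 for WT day 4 over day 0, 0 to 4 for S2/3DKO over WT at day 0, 0 to 3 for S2/3DKO change minus WT change, 0 to 3 for S4KO change minus WT change, 0 to 1 for S2/3DKO over WT at day 4, 0 to 1 for S4KO over WT at day 4, 0 to 3 for S2/3DKO day 4 over day 0 and 0 to 2 for S4KO day 4 over day 0. Of 1206 gene-level alternatives, 1001 kept direction and side of the threshold, 82 newly passed it, 39 no longer passed it, and 84 changed sign with neither value called. With limma on log2(FPKM + 1) the sign changed for Il6st 0.21 and Stat3 0.05 in WT day 4 over day 0. Pim1 0.13 had the other sign in S2/3DKO over WT at day 0. Stat3 -0.18 and Gbx2 0.44 had the other sign in S2/3DKO change minus WT change. With limma on log2(FPKM + 0.1) the sign changed for Il6st 0.23 and Stat3 0.05 in WT day 4 over day 0. Pim1 0.13 had the other sign in S2/3DKO over WT at day 0. Lifr -0.02 had the other sign in S4KO over WT at day 4. Stat3 -0.19 and Gbx2 0.60 had the other sign in S2/3DKO change minus WT change. With limma on log2(FPKM + 1) and no filter the sign changed for Il6st 0.21 and Stat3 0.05 in WT day 4 over day 0. Pim1 0.13 had the other sign in S2/3DKO over WT at day 0. Stat3 -0.18 and Gbx2 0.44 had the other sign in S2/3DKO change minus WT change. With a replicate block the sign changed for Gbx2 0.02 in S2/3DKO change minus WT change. With the length and GC correction the sign changed for Lifr -0.36, Il6st -0.36, Stat3 -0.02, Pim1 0.22 and Gbx2 0.10 in S2/3DKO over WT at day 0. Lifr -0.01, Il6st -0.53, Socs3 0.13, Pim3 0.13 and Bcl3 0.38 had the other sign in S4KO over WT at day 0. Lifr 0.09 had the other sign in S2/3DKO over WT at day 4. Lifr 0.45, Il6st 0.81 and Pim1 -0.20 had the other sign in S2/3DKO change minus WT change. Lifr 0.23 and Stat3 0.17 had the other sign in S4KO change minus WT change. With the replicate block and the length and GC correction the sign changed for Lifr -0.36, Il6st -0.36, Stat3 -0.02 and Pim1 0.20 in S2/3DKO over WT at day 0. Lifr -0.02, Il6st -0.55, Socs3 0.08, Pim3 0.12 and Bcl3 0.37 had the other sign in S4KO over WT at day 0. Lifr 0.09 had the other sign in S2/3DKO over WT at day 4. Lifr 0.44, Il6st 0.80 and Pim1 -0.18 had the other sign in S2/3DKO change minus WT change. Lifr 0.19 and Stat3 0.16 had the other sign in S4KO change minus WT change. With each library left out, the following values had both signs. Il6st -0.18 to 0.16 were these for WT day 4 over day 0. Pim1 -0.35 to 0.08 and Gbx2 -3.10 to 0.33 were these for S2/3DKO over WT at day 0. Il6st -0.31 to 0.43 and Gbx2 -0.01 to 1.08 were these for S4KO over WT at day 0. Il6st -0.20 to 0.13 and Gbx2 -0.99 to 2.46 were these for S2/3DKO change minus WT change. Il6st -0.14 to 0.72 and Stat3 -0.37 to 0.10 were these for S4KO change minus WT change. Lifr -0.51 to 0.10, Junb -0.57 to 2.72, Pim3 -0.07 to 1.11 and Bcl3 -0.39 to 0.99 were these for S2/3DKO over WT at day 4. Lifr -0.67 to 0.62, Il6st -0.04 to 0.82, Junb -0.13 to 3.16 and Pim3 -0.13 to 1.05 were these for S4KO over WT at day 4. Il6st -0.17 to 0.02, Junb -0.67 to 1.66 and Pim3 -0.57 to 0.05 were these for S2/3DKO day 4 over day 0. Il6st -0.20 to 0.70 and Junb -0.36 to 0.59 were these for S4KO day 4 over day 0.

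The replicate numbers were not taken to pair libraries, since deviations of same-numbered libraries correlated at -0.243 to 0.523 and over 0.1 in 3 of 15 pairs of groups. The block ended the calls of Gbx2 in S2/3DKO (-2.94, adjusted p 0.0595) and Bcl3 in S4KO (-2.11, adjusted p 0.0545) at day 4 over day 0, and no other call among the 9 genes. Of 46 calls in the other lists that the naming rule gave, the length and GC correction ended 5 (Pias1 in WT, Il6ra, Tfcp2l1 and Sp5 in S2/3DKO at day 0, and Ptpn11 in S4KO at day 0), the groups of a contrast alone 11, limma on log2(FPKM + 1) with no filter 14, and DESeq2 0. RLE size factors ended 1, Ptpn11 in S4KO at day 4 over day 0. The causes of the changes were not tested. With 2 libraries a group, a missed threshold does not show that a gene did not change.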
